A study of Mus musculus with 9 samples.

Results

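Mast cells were followed through 10 genes that mark them, Tpsb2, Tpsab1, Cma1, Mcpt4, Cpa3, Kit, Fcer1a, Ms4a2, Hdc and Mrgprb2, chosen by name out of the 22609 genes counted. All 10 were present in the count tables, and 8 had enough reads to be tested. The libraries came from hind paw skin punches, dorsal root ganglia (DRG) of segments L3 to L5, which hold the sensory neuron cell bodies, and lumbar spinal cord, with 3 samples of each tissue. The mice were male, of the strain given as C57 and 8 to 12 weeks old. Each had received 2 intraperitoneal doses of paclitaxel at 2 mg/kg, a chemotherapy drug that stabilises microtubules, and an antagonist of the lymphotoxin-beta receptor (LTβR), 15 µg into the hind paw and 15 µg into the spinal fluid. Tissue was taken 6 days after the last paclitaxel dose. The sample titles place the antagonist on days 1 and 4, and the series text places it between the paclitaxel doses and a day after them. All 9 samples shared this treatment and IgG-treated controls are not analysed here, so every comparison is between tissues and none measures an effect of paclitaxel or of the antagonist. Nothing in the labels ties each sample to a mouse of its own. The p-values therefore cover only the spread between these samples, which may be technical.

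Mast cells are resident cells of skin, nerve sheaths and meninges that store histamine and proteases in granules and release them on stimulation. The connective tissue type found in mouse skin packs tryptases, chymases and a carboxypeptidase onto heparin. Antigen acts on these cells through IgE bound to its high-affinity receptor, and basic peptides act through the receptor Mrgprb2. Stem cell factor, acting through the receptor tyrosine kinase KIT, keeps them alive. Sensory nerve endings lie close to mast cells in skin, and histamine and tryptase can excite them.

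Reads assigned to genes ran from 15537545 to 23229724 per library, and 3 reads equalled 0.134 to 0.185 CPM (a gene's reads as a share of the library, scaled to a common size), using effective library sizes. The tissue labels matched their defining markers. The 5 sensory neuron markers summed to 3103 to 3701 CPM in DRG and to at most 44.6 CPM elsewhere. The 4 spinal neuron markers summed to 354 to 423 CPM in spinal cord and to at most 1.06 CPM elsewhere. The 4 keratinocyte markers summed to 24181 to 33221 CPM in paw and to at most 19.7 CPM elsewhere. Some libraries stood apart. Skeletal muscle markers summed to 587 and 914 CPM in DRG 1 and 2 against 30.4 CPM in DRG 3. They were highest in the paw punches, at 12948 to 16247 CPM, and lowest in spinal cord, at 12.7 to 60.1 CPM, so that muscle stepped down between tissues in the order of the granule proteases, and its part in their levels was not tested. Marrow neutrophil markers summed to 805 CPM in spinal cord 1 against 222 and 257 CPM in spinal cord 2 and 3, and fibroblast and meninges markers to 1808 CPM in spinal cord 3 against 1086 and 1160 CPM in spinal cord 1 and 2.

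Sequences bear on these genes in 2 ways, through how reads of close relatives were told apart and through what the genes share upstream of their starts. The tryptases Tpsb2 and Tpsab1 are close relatives, and reads that aligned to several places were not counted to genes. Their coding sequences, of 828 and 930 bases in the mouse reference transcripts, were identical in 620 of 930 aligned columns, or 66.7%. Tpsb2 held a base in 828 of these columns, and its gaps were counted as differences. The longest identical run was 39 bases, shorter than the 50-base reads. The stretch around that run is shown to let the difference be seen, from coding base 158 to 277 of Tpsb2 and from 260 to 379 of Tpsab1, with the 29 differing bases in capitals.
Tpsb2: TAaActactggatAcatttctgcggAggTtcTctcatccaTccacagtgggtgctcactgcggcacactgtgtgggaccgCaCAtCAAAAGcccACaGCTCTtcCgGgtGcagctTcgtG
Tpsab1: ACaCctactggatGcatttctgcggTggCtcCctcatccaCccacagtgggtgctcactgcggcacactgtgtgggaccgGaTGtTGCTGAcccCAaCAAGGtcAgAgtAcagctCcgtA
No 50-base window of the longest Tpsb2 or Tpsab1 transcript occurred exactly in a transcript of another gene. The same held for Cpa3, Kit, Fcer1a, Hdc and Mrgprb2. Shared windows made up 5.38% of the chymase Cma1 transcript, 5.48% of that of the chymase Mcpt4 and 2.69% of that of Ms4a2, so exact sharing covered a small part of their length. Windows that differ by a few bases, and genome copies outside transcripts, were not searched.

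The 250 bases before the start of 8 members, all but Tpsb2 and Tpsab1, from RefSeq for GRCm38.p6, were searched on both strands for GATAA, a core that GATA factors bind, and for CATGTG, an E-box that MITF binds. GATA2 and MITF are transcription factors that mast cells need. GATAA, which reads TTATC on the opposite strand, was present in 6 of the 8, those of Cpa3, Cma1, Mcpt4, Mrgprb2, Fcer1a and Ms4a2, against 22.6% of all 32851 such promoters. It was absent from those of Kit and Hdc. CATGTG was present in 1 of the 8, that of Fcer1a, against 12.3% of all, and did not overlap its GATAA match. A match is a run of letters, not a site shown to be bound. The promoters of the proteases among these and of Mrgprb2 are shown, as the members whose levels stepped down from paw to DRG to spinal cord, with GATAA or TTATC in capitals. Cpa3 is from chr3:20242182-20242431, Cma1 from chr14:55944676-55944925, Mcpt4 from chr14:56062311-56062560 and Mrgprb2 from chr7:48558087-48558336, all on the minus strand.
Cpa3: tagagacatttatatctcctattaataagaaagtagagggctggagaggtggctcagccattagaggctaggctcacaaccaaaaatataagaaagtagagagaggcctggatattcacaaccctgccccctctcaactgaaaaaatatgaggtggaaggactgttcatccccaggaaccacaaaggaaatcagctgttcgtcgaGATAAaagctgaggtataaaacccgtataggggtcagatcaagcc
Cma1: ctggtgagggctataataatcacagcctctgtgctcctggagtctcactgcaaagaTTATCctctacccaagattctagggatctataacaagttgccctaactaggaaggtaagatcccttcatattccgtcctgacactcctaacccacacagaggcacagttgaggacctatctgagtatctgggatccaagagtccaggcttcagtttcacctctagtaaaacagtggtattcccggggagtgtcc
Mcpt4: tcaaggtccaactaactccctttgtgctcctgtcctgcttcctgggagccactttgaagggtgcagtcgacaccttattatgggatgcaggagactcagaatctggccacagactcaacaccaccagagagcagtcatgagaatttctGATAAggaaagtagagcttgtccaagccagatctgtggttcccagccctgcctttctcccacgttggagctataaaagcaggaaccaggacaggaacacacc
Mrgprb2: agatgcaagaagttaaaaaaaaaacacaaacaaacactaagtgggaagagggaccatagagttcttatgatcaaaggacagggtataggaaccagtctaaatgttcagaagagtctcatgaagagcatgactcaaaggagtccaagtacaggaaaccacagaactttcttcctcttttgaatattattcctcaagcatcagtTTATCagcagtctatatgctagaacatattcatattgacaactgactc

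The granule protease genes had their highest levels in paw, lower levels in DRG and the lowest in spinal cord, where all but Cpa3 were near the limit of detection. Of the 8 tested members 6 were called, all higher in paw than in DRG, with a Benjamini-Hochberg adjusted p under 0.05 in edgeR's quasi-likelihood test over all genes, while Kit and Hdc were not called. In the same comparison 80.5% of the 16091 tested genes were called, 39.7% higher in paw and 40.8% lower. The median log2 fold change was 2.58 over the 8 members and −0.02 over all tested genes. Against spinal cord 7 members were called higher in paw and 1 lower, where 81.6% of all genes were called, 39.9% higher and 41.7% lower. Tpsab1 and Mrgprb2 passed the filter on low counts only through their paw reads, so in both comparisons with paw their direction was not open. Between DRG and spinal cord 7 were called higher in DRG and 1 lower, where 59.6% of all genes were called, with 29% higher in DRG and 30.6% lower. Here Tpsab1 (9 reads against 0) and Mrgprb2 (12 against 0) passed the filter on low counts through their paw reads. With DRG and spinal cord fitted alone 6 members were tested, without these genes, and 5 were called higher and 1 lower. The share of all genes called is not given for that fit. The members' median log2 fold change against spinal cord was 5.56 in paw and 2.37 in DRG. Genes at 0 reads were entered at a floor of 3 reads over the group. Over all genes the medians were −0.03 and −0.02. In such bulk samples fewer mast cells and less RNA per cell cannot be told apart.

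**Figure D1:**
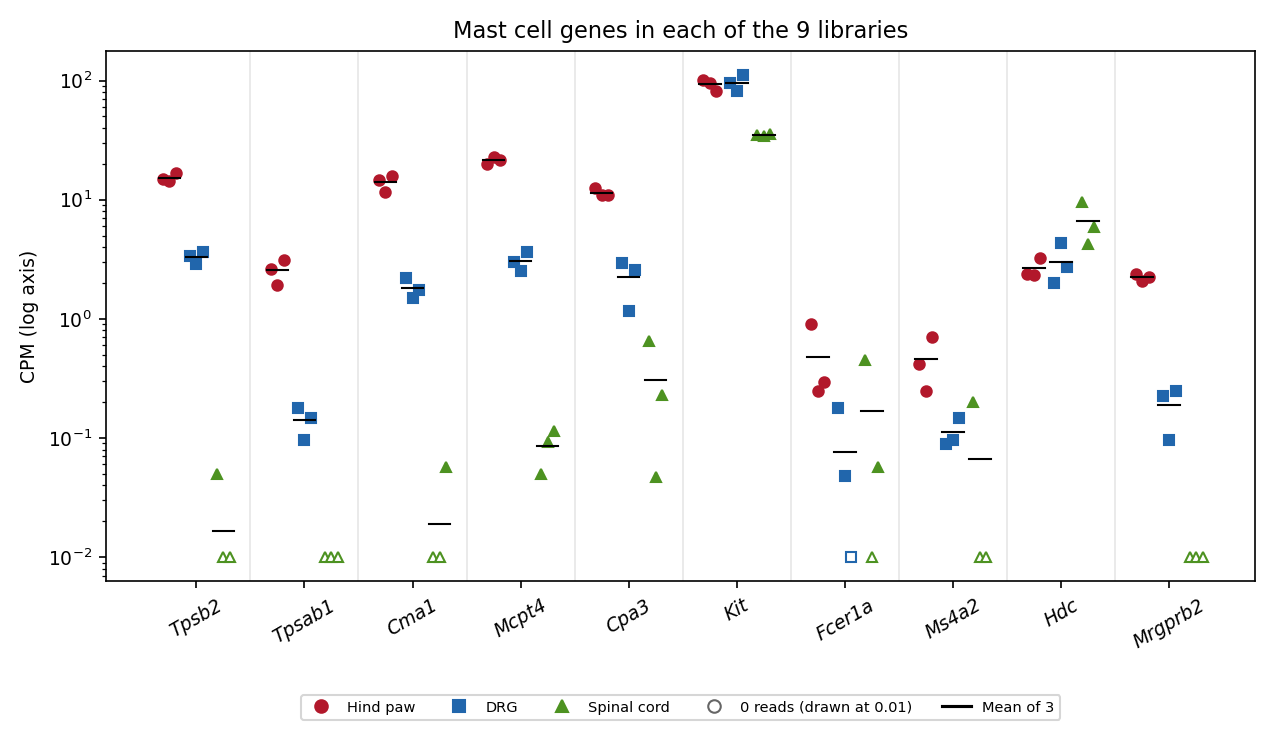
CPM on a log axis for the 10 mast cell genes in each library, with the mean of 3 as a line and libraries with 0 reads drawn open at 0.01. The 5 granule proteases and Mrgprb2 step down from paw to DRG to spinal cord, Kit is level in paw and DRG, and Hdc is highest in spinal cord 1 at 9.65 CPM.

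Tpsb2 encodes the tryptase mMCP-6, a trypsin-like protease stored on heparin. Its level was 15.0, 14.3 and 16.7 CPM in paw 1 to 3 and 3.40, 2.90 and 3.61 CPM in DRG 1 to 3. In spinal cord 1 read was counted over all 3 libraries. The tissues did not overlap, and the spread within paw and within DRG was small beside the distance between them. Tpsb2 exceeded its DRG level in paw by 2.21 ± 0.18 on the log2 scale (SE), or 4.63-fold (adjusted p = 3.65e-07, edgeR). Against spinal cord the ratio of reads, scaled by effective library sizes, was 901 in paw, with a 95% counting interval of 161 to 35642. In DRG it was 194, with an interval of 34.5 to 7712. The single read was in spinal cord 1, and without that library only a lower bound is left. These intervals cover counting error only, since reads amplified by PCR, with no molecular identifiers, may repeat a molecule.

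Tpsab1 encodes the second tryptase, mMCP-7. It stood at 2.63, 1.91 and 3.12 CPM in paw 1 to 3. It had 4, 2 and 3 reads in DRG 1 to 3, or 0.141 ± 0.0416 CPM (SD, n = 3). No library of spinal cord held a read, which allows up to 0.051 CPM over the 3 libraries together. Paw lay above DRG by 4.11 ± 0.40 on the log2 scale (adjusted p = 6.76e-06, edgeR), the largest difference of the 8 tested members in this comparison. With spinal cord set to a floor of 3 reads over the group, the ratio of Tpsab1 was 50.3 in paw and 2.79 in DRG. This ratio takes the paw and DRG reads as exact and leaves out their counting error.

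The tryptases also differed in their proportion. Tpsab1 made up 15.0%, 11.8% and 15.8% of the reads of the tryptase pair in paw 1 to 3, and 5%, 3.23% and 3.95% in DRG 1 to 3. The mean was 14.2 ± 2.08% in paw and 4.06 ± 0.892% in DRG (SD, n = 3). The shares of the tissues did not overlap, but with 2 to 4 Tpsab1 reads per DRG library their exact binomial intervals did, with an upper bound of 12.3% in DRG 1 and a lower bound of 8.18% in paw 2. This share was chosen after its values were seen and was not tested.

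Cma1 and Mcpt4 are chymases. Cma1, which encodes mMCP-5, was at 14.8, 11.6 and 15.8 CPM in paw 1 to 3 and at 2.19, 1.496 and 1.73 CPM in DRG 1 to 3. Spinal cord held 1 read, in sample 3. Every paw library lay above every DRG library, by 2.95 ± 0.23 on the log2 scale, or 7.74-fold (adjusted p = 2.09e-07, edgeR). Against spinal cord the ratio of Cma1 reads, scaled in the same way, was 829 in paw, with an interval of 148 to 32800. In DRG it was 107, with an interval of 18.8 to 4260, and both again rested on a single read.

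Mcpt4 encodes mMCP-4, the mouse chymase closest in activity to the human enzyme. Its CPM was 19.99, 22.8 and 21.4 in paw 1 to 3, 2.99, 2.51 and 3.66 in DRG 1 to 3, and 0.050, 0.0933 and 0.115 in spinal cord 1 to 3, which is 1, 2 and 2 reads. Mcpt4 thus separated all 3 tissues without overlap. Mcpt4 in paw exceeded DRG by 2.81 ± 0.17 on the log2 scale, or 6.99-fold (adjusted p = 1.76e-08, edgeR). It was higher than in spinal cord by 7.87 ± 0.27 in paw (adjusted p = 1.52e-10, edgeR) and by 5.06 ± 0.32 in DRG (adjusted p = 1.06e-07, edgeR).

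Cpa3 encodes the mast cell carboxypeptidase, which basophils also express. It stood at 12.4, 11.0 and 11.0 CPM in paw 1 to 3, at 2.95, 1.16 and 2.57 CPM in DRG 1 to 3 and at 0.65, 0.0466 and 0.23 CPM in spinal cord 1 to 3. DRG 2 was low among the ganglia and spinal cord 1 high among the cords, with 13 of the 18 spinal cord reads. The tissues did not overlap. Paw exceeded DRG by 2.36 ± 0.38 on the log2 scale, or 5.13-fold (adjusted p = 0.000156, edgeR). It exceeded spinal cord by 5.198 ± 0.50 (adjusted p = 2.21e-06, edgeR), and by 6.42 without spinal cord 1. DRG exceeded spinal cord by 2.84 ± 0.55 (adjusted p = 0.0011, edgeR), and by 4.05 without spinal cord 1.

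Mrgprb2 encodes the receptor through which basic peptides and drugs degranulate mouse mast cells without IgE. It was at 2.39, 2.10 and 2.24 CPM in paw 1 to 3, had 5, 2 and 5 reads in DRG 1 to 3, and had no read in spinal cord. The paw libraries were close together and did not overlap DRG, at 2.24 ± 0.148 CPM against 0.189 ± 0.0811 CPM (SD, n = 3). The difference of paw from DRG was 3.52 ± 0.37 on the log2 scale, or 11.5-fold (adjusted p = 1.27e-05, edgeR). Against the same floor in spinal cord the ratio of Mrgprb2 was 44.0 in paw and 3.72 in DRG, again without the counting error of the paw and DRG reads.

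**Figure D2:**
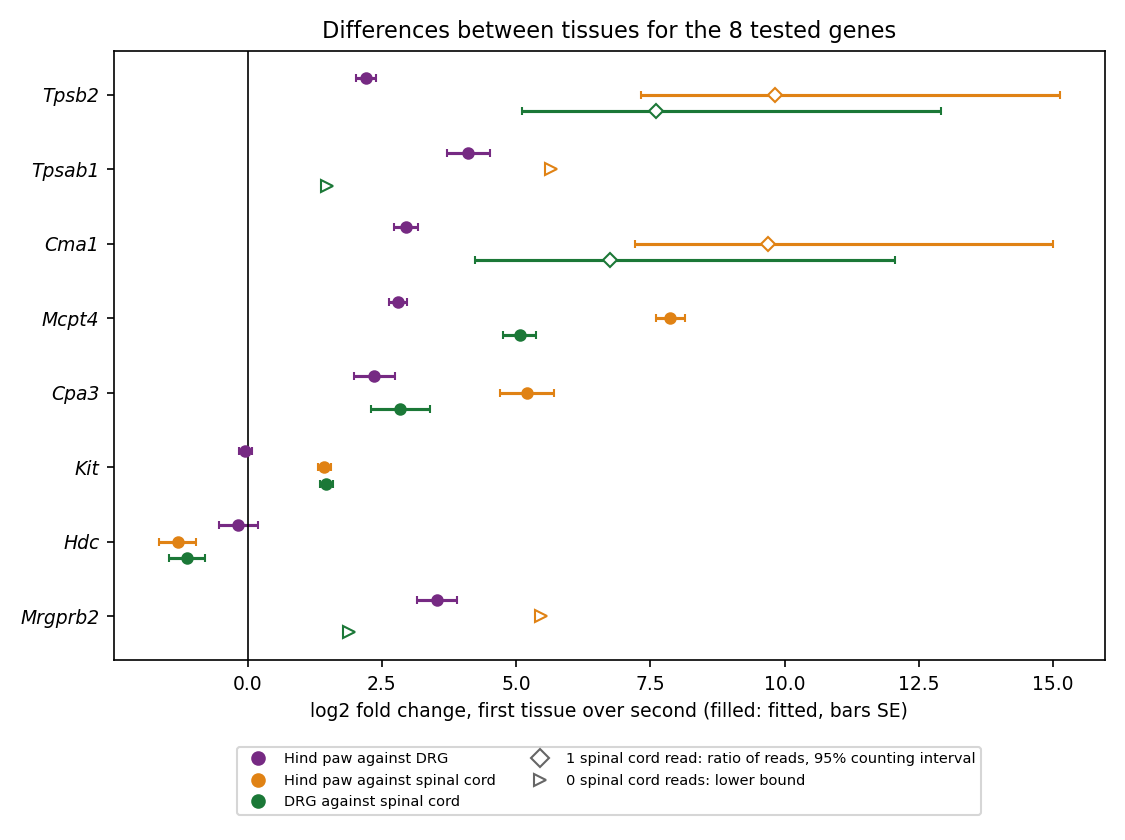
Log2 fold changes of the 8 tested genes between tissues, filled circles being fitted values with their SE. Open diamonds are ratios of reads, scaled by effective library sizes, with 95% counting intervals. Open triangles are ratios to a floor of 3 spinal cord reads and leave out the counting error of the other tissue. Tpsb2, Tpsab1, Cma1, Mcpt4, Cpa3 and Mrgprb2 lie between 2.21 and 4.11 in paw against DRG, while Kit and Hdc lie near 0.

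The subunits of the IgE receptor were near the limit of detection. Fcer1a, its IgE-binding alpha chain, had 15, 4 and 5 reads in paw 1 to 3, 4, 1 and 0 in DRG 1 to 3 and 9, 0 and 1 in spinal cord 1 to 3. Ms4a2, its beta chain, had 7, 4 and 12 reads in paw, 2, 2 and 3 in DRG and 4, 0 and 0 in spinal cord. Neither passed the filter on low counts. For both genes every paw library lay above every DRG library, by few reads, and spinal cord 1 lay above every DRG library. For Fcer1a spinal cord 1 also lay within the paw range. Without that filter Ms4a2 was called higher in paw than in DRG (1.97 ± 0.77, adjusted p = 0.0349, edgeR) and than in spinal cord (2.64 ± 0.86, adjusted p = 0.0135, edgeR). Fcer1a was called in neither (adjusted p = 0.0529 and 0.188, edgeR). Fcer1g, the gamma chain that macrophages and other myeloid cells share, was far more abundant, at 16.9 ± 1.03 CPM in paw, 8.19 ± 1.31 in DRG and 10.1 ± 1.21 in spinal cord (SD, n = 3). It exceeded its DRG level in paw by 1.05 ± 0.15 (adjusted p = 3.89e-05, edgeR). Macrophage markers moved with it, at a summed 196 to 227 CPM in paw and 54.1 to 86.3 CPM in DRG, and their part in it was not tested.

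Kit, the receptor tyrosine kinase for stem cell factor, had another order than the proteases. It was at 102, 96.3 and 82.3 CPM in paw 1 to 3, at 94.8, 81.8 and 112 CPM in DRG 1 to 3 and at 34.9, 34.0 and 35.3 CPM in spinal cord 1 to 3. Paw and DRG overlapped and lay above spinal cord, whose 3 samples were nearly equal. The difference of paw from DRG was −0.04 ± 0.12 on the log2 scale (adjusted p = 0.766, edgeR), and its sign depended on the scaling, at 0.081 with upper quartile factors. Kit was higher than in spinal cord by 1.43 ± 0.12 in paw (adjusted p = 5.39e-07, edgeR) and by 1.47 ± 0.12 in DRG (adjusted p = 1.3e-06, edgeR). Kit is not confined to mast cells, since melanocytes and sets of neurons also express it. Melanocyte markers summed to 8.08 to 11.5 CPM in paw, 6.57 to 11.7 CPM in DRG and 1.75 to 2.12 CPM in spinal cord, with Tyr, the enzyme that starts melanin synthesis, at 0 reads in DRG. The DRG sum came mostly from Tyrp1, at 8.28 ± 2.55 CPM against 3.10 ± 0.547 in paw. Dct and Pmel went the other way, with paw above DRG by 5.21 ± 0.38 (adjusted p = 1.28e-07, edgeR) and 1.73 ± 0.34 (adjusted p = 0.000537, edgeR). Their part in the Kit level was not tested.

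Levels of different genes can be compared only per length of transcript, taken here from the reference exons of each gene. In paw, Mcpt4 was at 19.3 ± 1.25, Kit at 17.8 ± 1.90, Cma1 at 12.9 ± 2.00, Tpsb2 at 9.59 ± 0.777 and Cpa3 at 7.92 ± 0.578 CPM per kilobase (SD, n = 3). The neighbours Mcpt4 and Kit in this order differed by less than the SD of Kit. Tpsab1, Hdc and Mrgprb2 followed at 1.22 ± 0.29, 1.11 ± 0.21 and 1.08 ± 0.0713 CPM per kilobase and did not differ beyond their SD. Fcer1a and Ms4a2 were lowest, at 0.481 ± 0.364 and 0.163 ± 0.0826 CPM per kilobase. In DRG the order changed, with Kit at 18.3 ± 2.85 CPM per kilobase far above Mcpt4 at 2.76 ± 0.523 and Tpsb2 at 2.07 ± 0.231. In spinal cord Kit stood at 6.61 ± 0.136 and Hdc at 2.75 ± 1.16 CPM per kilobase, and none of the other 8 exceeded 0.213.

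Hdc, the enzyme that makes histamine from histidine, was highest in spinal cord. It was at 2.39, 2.34 and 3.24 CPM in paw 1 to 3, at 2.01, 4.29 and 2.72 CPM in DRG 1 to 3 and at 9.65, 4.24 and 5.85 CPM in spinal cord 1 to 3. Paw did not overlap spinal cord, whereas DRG 2 lay just above spinal cord 2. Hdc was called lower against spinal cord, with a log2 fold change of −1.30 ± 0.35 in paw (adjusted p = 0.00448, edgeR) and of −1.13 ± 0.34 in DRG (adjusted p = 0.0129, edgeR). Its difference between paw and DRG was −0.17 ± 0.36 (adjusted p = 0.668, edgeR) and turned to 0.19 without DRG 2. The DRG call fell away when spinal cord 1 was left out (−0.74, adjusted p = 0.0666, edgeR) and when DRG 1 was (−0.90, adjusted p = 0.0542, edgeR). The paw call held without spinal cord 1 (−0.90, adjusted p = 0.0222, edgeR) and was lost with spinal cord 1 and 3 both left out (−0.65, adjusted p = 0.147, edgeR), where spinal cord is a single library assumed to vary like the other tissues. Against spinal cord its calls thus ran opposite to those of the proteases.

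Markers of other granulocytes varied between the same libraries as Hdc. Marrow neutrophil markers, among them Ngp and S100a8, summed to 195, 451 and 166 CPM in DRG 1 to 3 and to 805, 222 and 257 CPM in spinal cord 1 to 3. DRG 2 and spinal cord 1, the libraries highest in these sums, were also the highest in Hdc within their tissue. In paw the same markers summed to 5.92 to 11.1 CPM, with Hdc at 2.34 to 3.24 CPM. Of the 7 marrow neutrophil markers 6 were called lower in paw than in DRG, against 40.8% of all genes. Between DRG and spinal cord their adjusted p ran from 0.149 for Mpo to 0.479 for Camp in edgeR. The part of these cells in the Hdc level was not tested.

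Basophils carry Cpa3, Fcer1a, Ms4a2 and Hdc in common with mast cells. Basophil and eosinophil markers summed to 55.8 CPM in spinal cord 1 against 6.25 and 11.4 CPM in spinal cord 2 and 3, to 4.70 to 11.1 CPM in DRG and to 0.555 to 1.06 CPM in paw. Most of the sum in spinal cord 1 came from Prg2, at 37.7 CPM, and Epx, an eosinophil peroxidase, at 10.8 CPM. Prg2 was also the largest part in DRG, at 6.12 ± 2.58 CPM (SD, n = 3). The sum is therefore not a level of basophils alone. The basophil proteases Prss34 and Mcpt8 had 86 and 18 reads in spinal cord 1, and Mcpt8 had none in spinal cord 2. Prss34 had 2 and 7 reads in spinal cord 2 and 3 and 13, 11 and 5 in DRG 1 to 3. Spinal cord 1 held 9 of the 10 spinal cord reads of Fcer1a, all 4 of Ms4a2 and 13 of the 18 of Cpa3. It held 1 read of Tpsb2, 1 of Mcpt4 and none of Cma1, Tpsab1 or Mrgprb2. In that library the genes shared with basophils were present while the tryptase, chymase and Mrgprb2 genes were at or near 0. In spinal cord 2 and 3 the tryptase, Cma1 and Mrgprb2 genes also had at most 1 read, and Mcpt4 had 2 in each. The part of basophils in the reads of spinal cord 1 was not tested. In paw the proteases were high and most of these markers low. Prss34 had 0, 1 and 3 reads there, Mcpt8 had 0, 1 and 0, and Epx had 0. Cd200r3, of the same list, ran against the other markers, with 7, 7 and 4 reads in paw 1 to 3, 2, 1 and 3 in DRG 1 to 3 and 3, 0 and 1 in spinal cord 1 to 3.

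**Figure D3:**
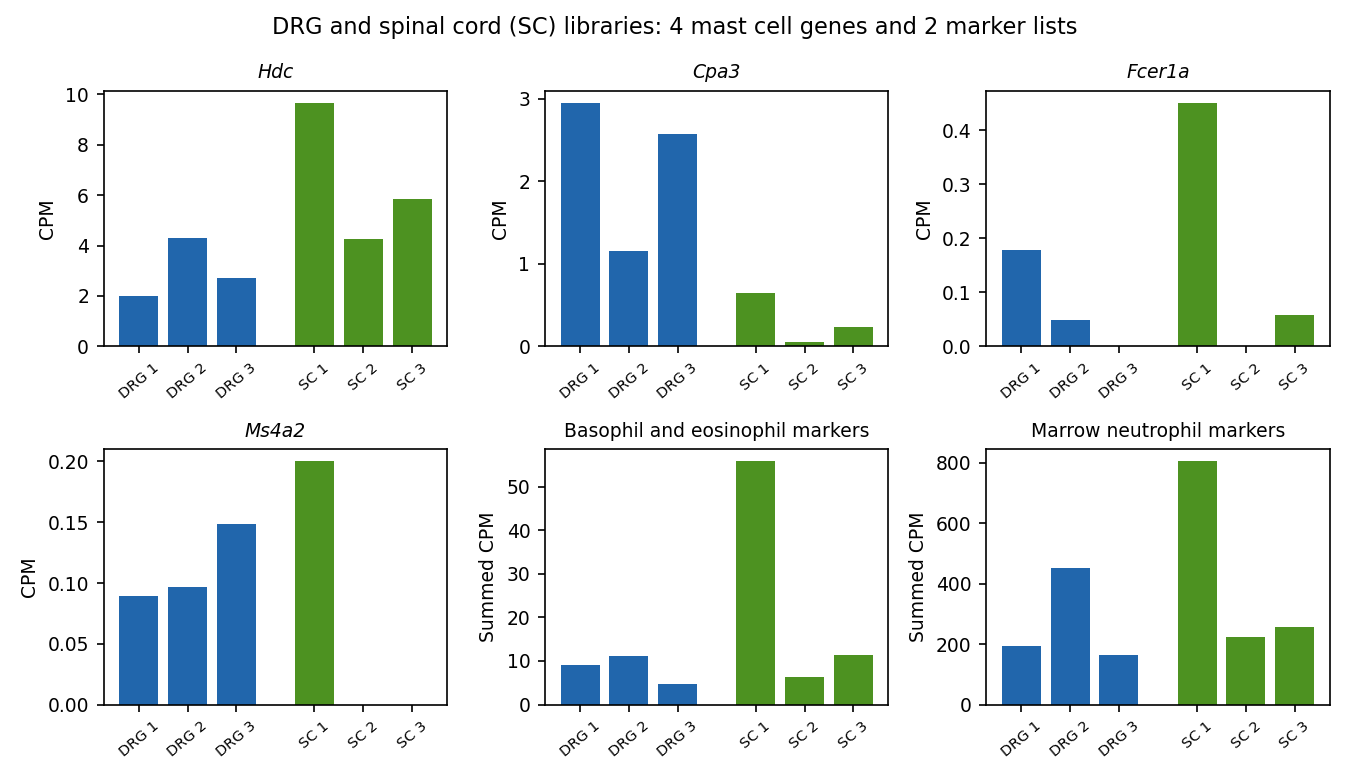
Bars from 0 give CPM of 4 mast cell genes and summed CPM of 2 marker lists in each DRG and spinal cord (SC) library. Spinal cord 1 is highest of the cords in all 6 panels, and DRG 2 is highest of the ganglia in Hdc, in basophil and eosinophil markers at 11.1 CPM and in marrow neutrophil markers at 451 CPM, but lowest in Cpa3.

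The ratio of each member to Cpa3 within a library does not depend on scaling and asks whether the genes keep their proportion between paw and DRG. Of the members with at least 10 reads in every paw and DRG library, Tpsb2 had a log2 ratio of 0.41 ± 0.17 in paw and 0.66 ± 0.57 in DRG, Cma1 0.28 ± 0.22 and −0.21 ± 0.50, and Mcpt4 0.90 ± 0.19 and 0.54 ± 0.54 (SD, n = 3). For these 3 proteases the tissues overlapped (p = 0.70, 0.30 and 0.40, exact two-sided permutation test). Tpsab1, Mrgprb2, Fcer1a and Ms4a2 fell below the minimum of reads and were left out. Of these, Tpsab1 and Mrgprb2 differed between paw and DRG by 4.11 and 3.52 on the log2 scale, more than Cpa3 at 2.36. The ratios spread more in DRG than in paw, and DRG 2, where Cpa3 was low, had the highest ratio for all 5 members. Kit to Cpa3 was 3.02 ± 0.12 in paw and 5.51 ± 0.56 in DRG, and Hdc to Cpa3 was −2.11 ± 0.32 and 0.47 ± 1.25. For Kit and Hdc the tissues did not overlap, and the exact permutation p of 0.10 (adjusted p = 0.25 over 5 ratios) is the smallest that 3 against 3 samples can give. No ratio can thus pass the threshold in this design.

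**Figure D4:**
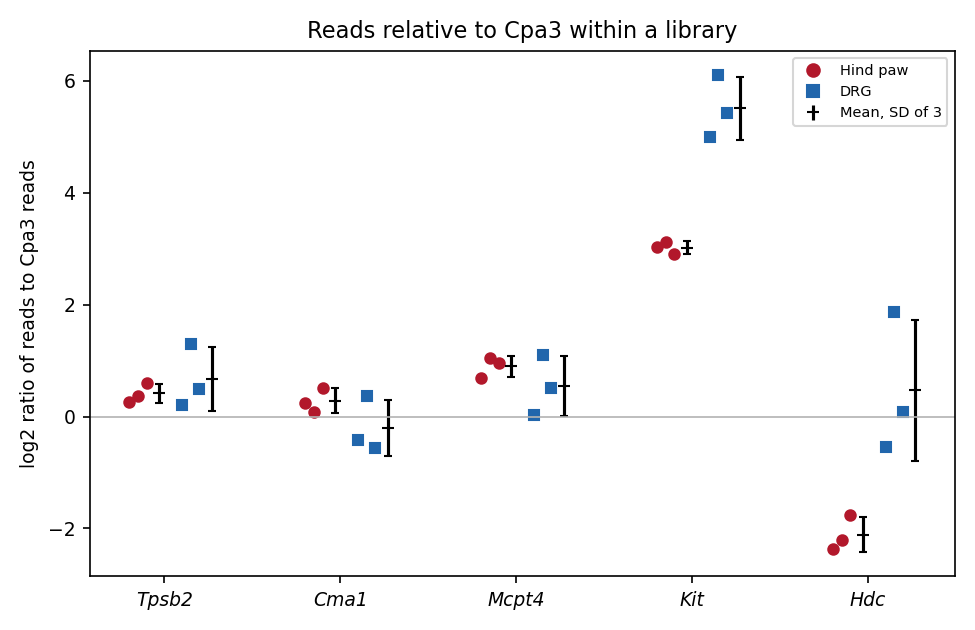
Log2 ratio of each gene's reads to Cpa3 reads in paw and DRG libraries, with mean and SD of 3. Tpsb2, Cma1 and Mcpt4 overlap between tissues, while every DRG library lies above every paw library for Kit and Hdc.

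Other genes of mast cell granules gave a mixed picture. Of 10 listed, 3 were tested, and 2 were called higher in paw than in DRG, against the same 39.7% of all genes. Slc18a2, the transporter that loads histamine and other amines into vesicles, was at 2.34 ± 0.633 CPM in paw, 0.775 ± 0.183 in DRG and 0.344 ± 0.157 in spinal cord and exceeded its DRG level in paw by 1.59 ± 0.34 (adjusted p = 0.00108, edgeR). Ndst2, which sulfates heparin, exceeded its DRG level in paw by 0.83 ± 0.11 (adjusted p = 3.47e-05, edgeR). Srgn, the core protein that carries heparin and that many blood cells share, was at 16.2 ± 0.573 CPM in paw and 19.5 ± 2.57 in DRG and was not called (adjusted p = 0.0785, edgeR). Tpsg1, a membrane-bound tryptase, was not tested and had 8, 16 and 17 reads in paw, 2, 0 and 3 in DRG and none in spinal cord. The mucosal mast cell proteases Mcpt1 and Mcpt2 had 5 and 0 reads over DRG and 0 and 1 over paw, and Mcpt9 and Cma2 had none in any library.

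Among receptors and signalling genes, 6 of 8 tested were called higher in paw than in DRG, against 39.7% of all genes. Lyn, a kinase that starts IgE receptor signalling, differed least of these, by 0.49 ± 0.20 (adjusted p = 0.0456, edgeR). Il1rl1, the receptor for interleukin-33 that mast cells carry, was at 5.63 ± 1.15 CPM in paw, 1.43 ± 0.591 in DRG and 0.624 ± 0.499 in spinal cord and differed between paw and DRG by 1.97 ± 0.41 (adjusted p = 0.000882, edgeR). Lat2, an adaptor of receptor signalling in mast and B cells, differed by 2.37 ± 0.19 (adjusted p = 2.89e-07, edgeR). Against spinal cord 3 of the 8 were called higher in paw, a share near the 39.9% of all genes, and 4 were called lower in DRG, against 30.6%. The list's median log2 fold change was 0.93 in paw against DRG, 0.33 in paw against spinal cord and −0.62 in DRG against spinal cord. Several of these genes are also genes of macrophages and microglia, whose markers summed to 125 to 137 CPM in spinal cord.

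The transcription factors had their own orders. Of 5 tested, 4 were called higher in paw than in DRG, against 39.7% of all genes. Gata2 was at 14.6 ± 1.96 CPM in paw, 3.90 ± 0.511 in DRG and 12.5 ± 2.83 in spinal cord, where neurons also use it. It exceeded its DRG level in paw by 1.90 ± 0.19 (adjusted p = 2.2e-06, edgeR) and was not called between paw and spinal cord (adjusted p = 0.274, edgeR). Mitf was at 13.0 ± 2.43, 11.8 ± 2.68 and 15.2 ± 0.864 CPM in paw, DRG and spinal cord and was called in no pair of tissues. Stat5a, which acts below KIT, exceeded its DRG level in paw by 1.68 ± 0.12 (adjusted p = 9.97e-08, edgeR). Stat5b, at 110 ± 15.8 CPM the most abundant of the list in paw, was higher there than in DRG by 0.79 ± 0.12 (adjusted p = 7.98e-05, edgeR). Gata1 was not tested, and 44 of its 53 spinal cord reads were in spinal cord 1.

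Kitl, the gene of stem cell factor, exceeded its DRG level in paw by 0.44 ± 0.11 (adjusted p = 0.00323, edgeR) and its DRG level exceeded that of spinal cord by 0.71 ± 0.11 (adjusted p = 0.000226, edgeR), with 74.1 ± 9.49, 54.4 ± 3.57 and 33.2 ± 2.89 CPM in paw, DRG and spinal cord. Its order matched that of the proteases, with much smaller steps. Il33, an alarmin that acts on mast cells, had the opposite order at 12.6 ± 1.69, 19.5 ± 5.597 and 154 ± 18.2 CPM, so that ligand and receptor Il1rl1 were highest in different tissues. Tslp, an epithelial cytokine, exceeded its DRG level in paw by 3.02 ± 0.41 (adjusted p = 2.99e-05, edgeR). Tgfb1, a growth factor that acts on mast cells, exceeded its DRG level in paw by 1.34 ± 0.18 (adjusted p = 2.66e-05, edgeR). Of this list 4 of 8 genes were tested. Il3 and Il9 had no read in any library, and Il4 and Il13 had 3 and 1 in all.

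Of the 7 listed enzymes that make prostaglandins and leukotrienes in mast cells, 7 were called higher in paw than in DRG, against 39.7% of all genes, and 7 higher than in spinal cord, against 39.9%, with medians of 3.11 and 1.61 on the log2 scale. Ptgds, the prostaglandin D synthase of meninges and glia, listed among the meninges markers, ran the other way at 1.57 ± 0.723 CPM in paw, 334 ± 128 in DRG and 652 ± 85.8 in spinal cord. Its difference of paw from DRG was −7.72 ± 0.40 (adjusted p = 5.04e-08, edgeR). Ptgs1, the constitutive cyclooxygenase, was at 89.6 ± 6.46 CPM in paw, 3.66 ± 0.337 in DRG and 13.7 ± 0.0544 in spinal cord. Hpgds, the haematopoietic prostaglandin D synthase of mast cells, was at 11.1 ± 2.70 CPM in paw and 1.54 ± 0.222 in DRG, a difference of 2.84 ± 0.23 (adjusted p = 2.86e-07, edgeR). Ltc4s, leukotriene C4 synthase, differed by 4.16 ± 0.30 (adjusted p = 1.01e-07, edgeR) and Ptgs2, the inducible cyclooxygenase, by 5.95 ± 0.42 (adjusted p = 8.21e-08, edgeR). Pla2g4a, the phospholipase that frees arachidonic acid for them, differed by 3.11 ± 0.24 (adjusted p = 2.05e-07, edgeR). Unlike the proteases, 5 of the 7 were called lower in DRG than in spinal cord, against 30.6% of all genes. Keratinocytes, platelets and macrophages also express some of them, and the share of mast cells in these levels was not tested.

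The genes that receive and inactivate histamine ran the other way. Of 4 tested, 3 were called lower in paw than in DRG, against 40.8% of all genes, and 3 lower in DRG than in spinal cord, against 30.6%. The receptor gene Hrh1 was at 2.76 ± 0.105 CPM in paw, 5.37 ± 0.518 in DRG and 13.2 ± 0.979 in spinal cord. Hrh3, the receptor on nerve terminals, was at 0.0785 ± 0.136, 4.28 ± 0.785 and 37.4 ± 7.05 CPM. Hnmt, which methylates histamine, was at 5.32 ± 0.392, 10.3 ± 1.39 and 20.9 ± 0.802 CPM. Hrh2 was at 1.51 ± 0.182, 1.34 ± 0.512 and 1.68 ± 0.485 CPM and was called in no pair of tissues. Hrh4 had 5 reads in all.

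Among relatives of Mrgprb2, Mrgprb1 alone of 6 tested had its highest level in paw. It was at 4.43, 3.70 and 4.36 CPM in paw 1 to 3 and 0.849, 0.627 and 0.495 CPM in DRG 1 to 3, with 1 read in spinal cord. It exceeded its DRG level in paw by 2.64 ± 0.30 on the log2 scale (adjusted p = 6.83e-06, edgeR). The other 5 were called lower in paw than in DRG, against 40.8% of all genes. Mrgprd, of non-peptidergic sensory neurons, was at 162 ± 52.2 CPM in DRG and 0.14 ± 0.0319 in paw. Mrgpra3, of itch neurons, had 200, 231 and 224 reads in DRG 1 to 3, and Mrgprb4, of stroking-sensitive neurons, had 72, 51 and 88. Neither had a read in paw or spinal cord. Reads of Mrgprb3 were 0 in all libraries.

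**Figure D5:**
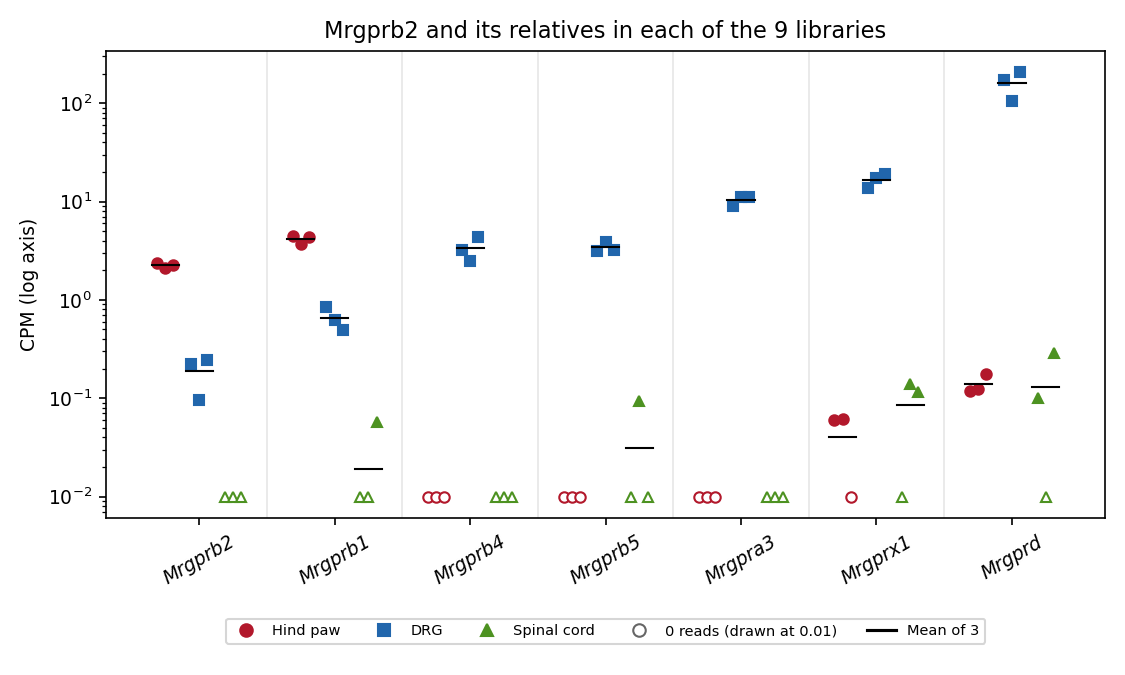
CPM on a log axis of Mrgprb2 and 6 relatives in each library, with the mean of 3 as a line and 0 reads drawn open at 0.01. Mrgprb2 and Mrgprb1 are highest in paw, while Mrgprb4, Mrgprb5, Mrgpra3, Mrgprx1 and Mrgprd are highest in DRG, where Mrgprd reaches 162 CPM on average.

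The step from DRG to spinal cord was also seen in connective tissue genes. Fibroblast and meninges markers summed to 3231 to 3970 CPM in paw, 2319 to 3480 CPM in DRG and 1086 to 1808 CPM in spinal cord. Ptgds, also a gene of glia, ran against this step. It made up 574, 744 and 638 CPM of the sum in spinal cord 1 to 3, against 334 ± 128 CPM in DRG (SD, n = 3). Of these 8 markers 1 was called higher and 1 lower in paw than in DRG, and 5 were called higher and 2 lower in DRG than in spinal cord. Of all tested genes 39.7% were called higher and 40.8% lower in paw than in DRG. For DRG against spinal cord these shares were 29% and 30.6%. Spinal cord 3, with the highest of these sums among the cords, had 1 read of Cma1, 2 of Mcpt4 and none of Tpsb2. Their part in the protease levels was not tested. With DRG 1 and 2 left out, the libraries rich in muscle transcripts, DRG held a single library, assumed to vary like the other tissues. The log2 fold change of paw against DRG was then 2.07 for Tpsb2, 4.04 for Tpsab1, 3.01 for Cma1 and 2.53 for Mcpt4. It was 2.15 for Cpa3, 3.14 for Mrgprb2, −0.27 for Kit and −0.04 for Hdc.

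The genes whose profile over the 9 libraries was most like that of the 5 granule proteases were Grhl3, Cd300lg, Cyp4b1, Pck1 and Slco2a1. The measure was the root mean square difference from the proteases' mean profile of log2 CPM, each gene centred on its own mean, and these genes differed by 0.25, 0.30, 0.33, 0.34 and 0.39. Among the proteases themselves it ran from 0.39 for Cma1 to 0.90 for Tpsab1, and it was 0.85 for Mrgprb2, 1.93 for Kit and 3.03 for Hdc. Each protease was measured against a mean that it helped make. The 5 named genes were picked as the closest of all tested genes, so their values and those of the proteases are not comparable. Grhl3 had 60.0 ± 5.68 CPM in paw, 11.3 ± 1.07 in DRG and 0.774 ± 0.186 in spinal cord. With a smaller prior count of 0.5 in the log scale, 2 of these 5 genes stayed among the closest 5, so the order depends on how reads near 0 are treated.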

How the data were processed

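RNA sequencing libraries of 9 samples, 3 from each of 3 tissues, were used. Libraries were made from roughly 500 ng of RNA with oligo-dT beads and a strand-marking kit, per the labels' protocols. The tools named are bcl2fastq, TopHat2 and HTSeq, and the build is mm9, per the submitters' processing notes. Tool versions, annotation and strand setting were not given in the sources used here, so reads of overlapping or antisense genes cannot be told apart. The authors deposited whole-number counts per gene symbol. The 5 summary rows of reads not assigned to a gene stayed out of library sizes and tests. Their share of a file's total differed by tissue, at 58.1 to 59.3% in paw, 42.9 to 43.3% in DRG and 46.2 to 47.7% in spinal cord. Reads aligned to several places made up 46.9 to 47.6%, 31.9 to 32.8% and 33.1 to 35.5% of the total in these tissues.

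Groups follow the tissue named in each title. Counts of all 9 libraries were fitted together with tissue as the factor in edgeR 4.0.16 under R 4.3.3 (filterByExpr, TMM factors, robust glmQLFit, glmQLFTest), and p-values were adjusted by Benjamini-Hochberg over all 16091 tested genes. SEs were obtained as the absolute log2 fold change over √F. The 3 comparisons share libraries. Alternatives were RLE, upper quartile or no factors, DESeq2 1.42.0, voom in limma 3.58.1, no filter, the compared tissues alone, a replicate block and each library left out. Leaving out DRG 1 and 2, or spinal cord 1 and 3, was added after seeing the data. The functions were tested on simulated data. No pair of libraries within a tissue agreed within sampling noise (chi-square per degree of freedom 7.3 to 36.7). Transcript sequences and lengths came from GENCODE M21 and promoters from RefSeq, both on GRCm38, another build than that of the files.

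The members and the 16 companion lists, 106 of whose 107 entries matched a row, were chosen with earlier results of these data known. Named were all members, of each companion list of pathway genes the 2 highest in paw and the 2 largest called changes from DRG in each direction, and the 5 genes most like the proteases. The lists of cell type markers are given as summed levels. Other companion genes and single markers were named after their values were seen.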

Additional observations from a re-analysis of the deposited data

How the results depend on the processing

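Over 19 alternative settings, 443 of 454 values for single genes kept their direction and their side of the threshold, 6 were no longer called and 5 reversed. All 5 were differences between paw and DRG that were not called. Kit turned to 0.081 with upper quartile factors and 0.073 with library totals, and with single libraries left out it ran from −0.12 to 0.077, turning without DRG 3 or paw 3. Hdc ran from −0.40 to 0.19, turning without DRG 2. The ratio of Tpsb2 to Cpa3 ran from −0.48 to 0.068 with single libraries left out. The 6 lost calls were 5 of Hdc against spinal cord and that of Tpsab1 in DRG against spinal cord (adjusted p = 0.0628, edgeR) with spinal cord 1 and 3 left out. Genes called lower in DRG than in spinal cord numbered 0 to 1 with single libraries left out. They numbered 0 without DRG 1 and 2 (Hdc −1.27, adjusted p = 0.0506, edgeR, a larger difference than with all libraries) and 0 without spinal cord 1 and 3, as did those lower in paw than in spinal cord. Both settings leave a tissue with 1 library, assumed to vary like the others. Upper quartile factors moved the median of all genes by 0.12 in paw against DRG and library totals by 0.11.

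Whether the replicate numbers pair samples of the same mice is not given in the labels. Same-numbered samples had correlations of deviations from −0.13 to 0.271, and differently numbered samples from −0.447 to 0.341. Not every sample correlated best with its own number. These correlations cannot settle the pairing, because the deviations also hold differences between libraries in muscle and marrow content. With a replicate block 6, 8 and 8 members were called in paw against DRG, paw against spinal cord and DRG against spinal cord, as without it. The shares of all genes called with the block are not given. Depth limits the spinal cord values, where Tpsb2, Cma1, Tpsab1 and Mrgprb2 had at most 1 read.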
